A study of Mus musculus with 25 samples.

Results

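Serpina3n and 8 other genes for secreted protease inhibitors were followed through RNA-seq libraries of sorted brain cells. The 9 genes, Serpina3n, A2m, Serping1, Serpine2, Timp1, Timp2, Timp3, Timp4 and Cst3, were chosen by name, with earlier results of these data known. Those results included the genotype differences of Serpina3n and Serping1 in astrocytes, so the choice was not blind to the data. All 9 genes were found among the 36528 gene IDs of the deposited tables. Mice were 6 months old and were either Tau-P301S animals, which carry a human MAPT transgene with the P301S mutation, or littermates without it, called non-Tg here. Nuclear NeuN staining selected neurons and Gfap staining selected astrocytes, which gave 5 P301S astrocyte libraries, 6 non-Tg astrocyte libraries, 6 P301S neuron libraries and 8 non-Tg neuron libraries. The promoter that drives the transgene, the number of animals behind each library and the sex of the animals are not stated by the labels. Gfap is both the sorting marker of astrocytes and a gene that itself changes in reactive astrocytes, so a shift in which cells pass the gate cannot be told apart from a shift within them. Libraries may also share animals, and p-values then measure only the spread between these samples.

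Secreted protease inhibitors limit how far proteases cut proteins outside the cell, and in brain many of them come from astrocytes. Serpins are suicide substrates that trap serine proteases, A2m cages proteases of several classes, TIMPs bind metalloproteinases in a tight complex, and cystatins block cysteine cathepsins. Serpina3n is widely used as a marker of reactive astrocytes in mouse, and Serping1 is the inhibitor of the C1 complex that starts the classical complement pathway.

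Serpina3n (Entrez 20716) lies at chr12:104406646-104414334 on the plus strand of GRCm38, and its 188 bases upstream of the annotated gene are shown because this is the member with the largest genotype difference in astrocytes. The 210 bases before Timp3, a member whose level was alike in both genotypes, are given for contrast. Both are RefSeq promoter windows of GRCm38.p6, printed from 5′ to 3′ on the plus strand and stopped before any annotated transcript, with CG dinucleotides in capitals.
Serpina3n, chr12:104406458-104406645: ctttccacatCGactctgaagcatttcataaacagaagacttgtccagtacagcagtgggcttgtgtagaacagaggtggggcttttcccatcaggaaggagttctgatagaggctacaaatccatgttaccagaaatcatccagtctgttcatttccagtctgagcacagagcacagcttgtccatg
Timp3, chr10:86300162-86300371: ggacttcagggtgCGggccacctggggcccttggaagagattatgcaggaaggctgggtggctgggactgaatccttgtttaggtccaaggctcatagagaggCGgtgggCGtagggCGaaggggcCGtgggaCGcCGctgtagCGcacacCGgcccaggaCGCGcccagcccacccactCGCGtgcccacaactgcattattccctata
Over the full RefSeq windows of 250 bases, Serpina3n had 1 CG and 46.4% G or C, the lowest of the 7 members with a RefSeq window. Full windows include the bases not printed above, which for Serpina3n lie past the gene start given here. The 6 others had between 2 CG (Timp4) and 34 CG (Serpine2), with 18 for Timp3, 21 for Timp2, 8 for Cst3 and 6 for Timp1. Across all 32851 windows of this length the median was 6 CG, and 18.8% of the windows had no more CG than Serpina3n. The letters TTCNNNGAA (the core that STAT factors bind), TGANTCA (AP-1) and GAAA followed after any 2 bases by GAAA (interferon response) were searched on both strands, and 0 of the 7 windows held any of them. Among all windows 7.02% held TTCNNNGAA, 6.75% held TGANTCA and 2.98% held the interferon response pattern.

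The other members lie at chr6:121636165-121679238 (A2m), chr2:84765360-84775444 (Serping1), chr1:79794317-79858665 (Serpine2), chr11:118301061-118355411 (Timp2) and chr2:148871722-148875512 (Cst3). Timp1, Timp3 and Timp4 each sit inside a synapsin gene that runs on the opposite strand. Timp1 (chrX:20870166-20874737) lies in Syn1 and shares no exon base with it, Timp4 (chr6:115244444-115252205) lies in Syn2 and shares 90 exon bases, and Timp3 (chr10:86300412-86349505) lies in Syn3 and shares 1733 exon bases. The labels do not say whether reads were counted by strand, so reads of these 3 Timp genes and of their hosts cannot be told apart for certain, and their values are uncertain in neurons, where synapsins are abundant.

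Libraries held 1245964 to 4453555 counts, at which 3 counts, taken as the limit of detection, correspond to between 0.674 and 2.41 CPM (counts scaled to 1000000 per library). P301S astrocyte libraries had 11939 to 16382 genes detected at a common depth of 1000000 counts, against 15040 to 17845 in non-Tg astrocyte libraries. Mitochondrial genes took 3.42% to 10.97% of counts in P301S astrocytes and 2.16% to 5.39% in non-Tg astrocytes, with 4 of 5 P301S libraries above every non-Tg library, and the part of this in the genotype differences was not tested. P301S astrocyte library 4 stood apart, with the fewest genes, the highest mitochondrial share and 39.3% of counts on Malat1. Summed over 12 genes, astrocyte markers came to 13074 to 26551 CPM in P301S astrocytes and 14443 to 24485 CPM in non-Tg astrocytes, against 500 to 757 CPM in P301S neurons and 371 to 711 CPM in non-Tg neurons. Microglia markers summed to 118 to 240 CPM in P301S astrocytes and 59.3 to 127 CPM in non-Tg astrocytes, and oligodendrocyte markers to 397 to 1190 CPM in P301S astrocytes and 201 to 529 CPM in non-Tg astrocytes. Endothelial markers summed to 4.78 to 37.6 CPM in P301S astrocytes, with Cldn5, Kdr and Esam at 0, and to 3.20 to 45.3 CPM in non-Tg astrocytes. Mural and fibroblast markers summed to 103 to 208 CPM in P301S astrocytes and 102 to 224 CPM in non-Tg astrocytes, and choroid plexus markers to 18.5 to 96.9 CPM in P301S astrocytes and 1.46 to 85.1 CPM in non-Tg astrocytes.

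Per gene length, on the authors' RPKM scale, Cst3 dominated the group in astrocytes. It averaged 161 ± 79.1 RPKM in P301S astrocytes and 132 ± 36.4 RPKM in non-Tg astrocytes (SD, n = 5 and 6), and its range overlapped that of no other member in either group. In P301S astrocytes the order went on with Serpina3n at 24.4 RPKM, Serpine2 at 13.98, Timp3 at 8.83, Timp4 at 7.04, A2m at 6.97, Timp2 at 2.80, Serping1 at 2.42 and Timp1 at 2.04, and each of these neighbours overlapped in range. Without P301S astrocyte library 4 Serpine2 averaged 7.67 RPKM and stood behind Timp3, and Timp1 averaged 0.543 RPKM. In non-Tg astrocytes Serpina3n stood at rank 5 with 2.37 RPKM, behind Serpine2 at 11.7, Timp3 at 8.65 and Timp4 at 4.54, and ahead of Timp2 at 2.25, A2m at 1.64, Serping1 at 0.559 and Timp1 at 0.155. These neighbours overlapped in range too, and without non-Tg astrocyte library 4 Serping1 averaged 0.264 RPKM and Timp1 0.064. Serpina3n thus made up 12.2% of the members' summed RPKM in P301S astrocytes and 1.35% of it in non-Tg astrocytes, while Cst3 made up 68.8% of it in P301S astrocytes and 80.0% of it in non-Tg astrocytes. In neurons the members summed to far less, 17.5 ± 4.68 RPKM in P301S neurons and 14.6 ± 3.30 RPKM in non-Tg neurons (SD, n = 6 and 8), against 230 ± 97.2 RPKM in P301S astrocytes and 164 ± 38.9 RPKM in non-Tg astrocytes. Cst3 and Timp4 led in neurons and overlapped in range, with Cst3 at 8.23 RPKM and Timp4 at 3.98 in P301S neurons, and Timp4 at 4.75 RPKM and Cst3 at 4.51 in non-Tg neurons.

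**Figure D1:**
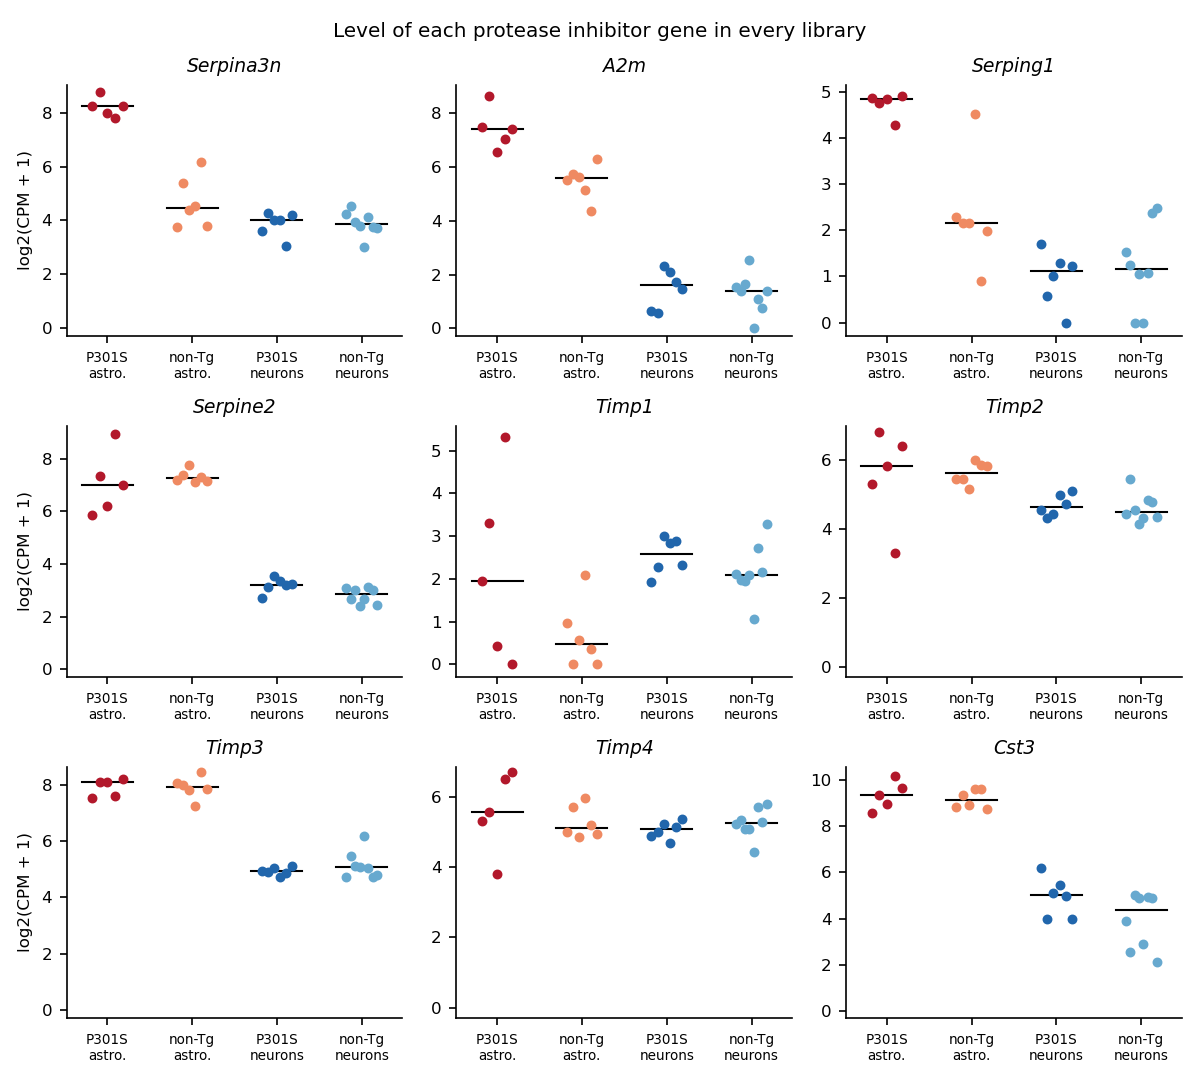
Level of each of the 9 genes in every library, as log2(CPM + 1) on a vertical axis that differs between panels. Each point is 1 library, the line is the group's median, and groups run from P301S astrocytes and non-Tg astrocytes to P301S neurons and non-Tg neurons. Serpina3n and A2m are the members whose P301S astrocyte libraries all lie above every non-Tg astrocyte library.

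The genotype comparison in astrocytes asks which inhibitors differ in astrocytes of brains with mutant tau. Serpina3n was about 10 times and A2m about 4 times as high in P301S as in non-Tg astrocytes, Serping1 was higher except against 1 non-Tg library, and the TIMPs, Serpine2 and Cst3 did not pass the test. The Serpina3n and Serping1 differences were known when the genes were listed, so they are given as descriptions and no p is printed for them. Of the 8 members with enough counts to be tested, 2 had an adjusted p under 0.05 and a higher level in P301S astrocytes, Serpina3n and A2m, and 0 had a lower one. Over all 12130 genes tested, 0.519% were called higher and 0.0247% lower by edgeR's quasi-likelihood test with Benjamini-Hochberg adjustment. With Serpina3n and Serping1 set aside, 1 of the other 6 was called, A2m, and the median log2 fold change of these 6 was 0.28, against 0.13 over all genes tested. In sorted bulk samples, more cells of a kind and more RNA per cell cannot be told apart.

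Serpina3n reached 299.6, 432, 253, 222 and 304 CPM in the 5 P301S astrocyte libraries, against a lowest value of 12.6, a median of 21.0 and a highest value of 71.6 CPM in the 6 non-Tg astrocyte libraries. The lowest P301S library was thus well above the highest non-Tg library, as were 1.16% of all genes tested. The log2 fold change was 3.36 (SE 0.40, 10.2-fold), and it stayed between 3.19 and 3.81 with any 1 of the 11 libraries left out. By size of fold change the gene stood at rank 23 of 12130. Serpina3n is the only Serpina3 gene with appreciable counts, as the 10 other genes of the cluster on chromosome 12, which are close copies of it, summed to 45 counts in P301S astrocytes, where Serpina3n had 4387, and to 14 counts in non-Tg astrocytes, where it had 541. Of those 45 counts, 28 fell on Serpina3h in P301S astrocyte library 2. None of the 10 had enough counts to be tested, and the labels do not say how reads that match several copies were assigned.

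A2m, alpha-2-macroglobulin, which takes up proteases and is cleared through the receptor Lrp1, was at 178, 399, 93.9, 133 and 172 CPM in P301S astrocytes. It was at 19.5 CPM in the lowest, 47.1 in the median and 77.3 in the highest non-Tg astrocyte library. The groups did not overlap, although P301S astrocyte library 3 came close to the highest non-Tg value. The log2 fold change was 2.08 (SE 0.38, 4.22-fold, adjusted p = 0.0101), with 5 of 5 P301S libraries above the non-Tg mean. It was 1.69 without P301S astrocyte library 2, which held the highest value, and the adjusted p remained at or under 0.0381 with any 1 library left out. The call was lost with the mean log2 CPM of oligodendrocyte and of microglia markers as covariates (adjusted p = 0.164). It was also lost with endothelial and mural markers, taken likewise (adjusted p = 0.691), and with the number of genes detected (adjusted p = 0.173). In this order the log2 fold change was 2.81, 2.88 and 2.75. The last 2 of these fits called 0 of all genes by edgeR, and they removed the call of Serpina3n as well, whose log2 fold change was then 2.53 with endothelial and mural markers and 2.93 with genes detected.

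Serping1, the C1 inhibitor, was at 28.5, 26.2, 28.0, 18.5 and 29.3 CPM in P301S astrocytes. In non-Tg astrocytes it had a lowest value of 0.873, a median of 3.48 and a highest value of 22.2 CPM. The highest value came from non-Tg astrocyte library 4, which lay within the P301S range, and the 5 other non-Tg libraries lay below every P301S library. The log2 fold change was 2.10 (SE 0.72) with all libraries, which did not pass the threshold by edgeR in the 11 astrocyte libraries. It was 3.17 (SE 0.68) without non-Tg astrocyte library 4. Both values are descriptions, since this difference was known when the genes were listed. Calls of Serping1 in other fits of these libraries are thus no independent test of it.

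Serpine2, protease nexin-1, an inhibitor of thrombin and plasminogen activators, was at 57.8, 160, 72.4, 487 and 127 CPM in P301S astrocytes. The 6 non-Tg astrocyte libraries ran from 136 through a median of 152 to 214 CPM. P301S astrocyte library 4 was above, and 3 P301S libraries were below, the whole non-Tg range. The log2 fold change was 0.23 (SE 0.42, 95% interval -0.60 to 1.05, adjusted p = 0.856), and it was -0.60 without P301S astrocyte library 4.

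Cst3, cystatin C, the main secreted inhibitor of cysteine cathepsins, was at 377, 638, 493.5, 1151 and 796 CPM in P301S astrocytes and ran from 422 through a median of 567.8 to 782 CPM in non-Tg astrocytes. The groups overlapped, with library 4 again the highest of the P301S libraries. The log2 fold change was 0.27 (SE 0.28, 95% interval -0.28 to 0.81, adjusted p = 0.709), and -0.017 without that library.

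TIMPs, which inhibit matrix metalloproteinases and, in the case of Timp3, also ADAM and ADAMTS proteases, did not pass the test in astrocytes. Timp3 was at 183, 271, 270.5, 194 and 294 CPM in P301S astrocytes and at 149.7 to 352 CPM (median 243) in non-Tg astrocytes, with a log2 fold change of 0.017 (SE 0.25, 95% interval -0.47 to 0.51, adjusted p = 0.984). Its interval was the narrowest of the 8 tested members, and its sign changed with several left-out libraries. Timp2 was at 38.6, 113, 56.3, 8.89 and 85.3 CPM in P301S astrocytes and at 35.2 to 62.9 CPM (median 49.5) in non-Tg astrocytes, with a log2 fold change of 0.30 (SE 0.46, 95% interval -0.61 to 1.21, adjusted p = 0.815). The P301S libraries were spread far more widely than the non-Tg libraries, on both sides of them. Timp4 was at 38.9, 46.8, 13.0, 89.6 and 104 CPM in P301S astrocytes and at 28.3 to 61.01 CPM (median 33.4) in non-Tg astrocytes, with a log2 fold change of 0.61 (SE 0.48, 95% interval -0.32 to 1.54, adjusted p = 0.600). Here 2 P301S libraries were above and 1 was below the non-Tg range. Timp1, which is low in resting brain, had 10, 28, 1, 57 and 0 counts in P301S astrocytes (2.88, 8.85, 0.345, 39.0 and 0 CPM), and 5 of the 6 non-Tg astrocyte libraries had 3 counts or fewer. It had too few counts to be tested in astrocytes, and its 57 counts came from P301S astrocyte library 4.

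**Figure D2:**
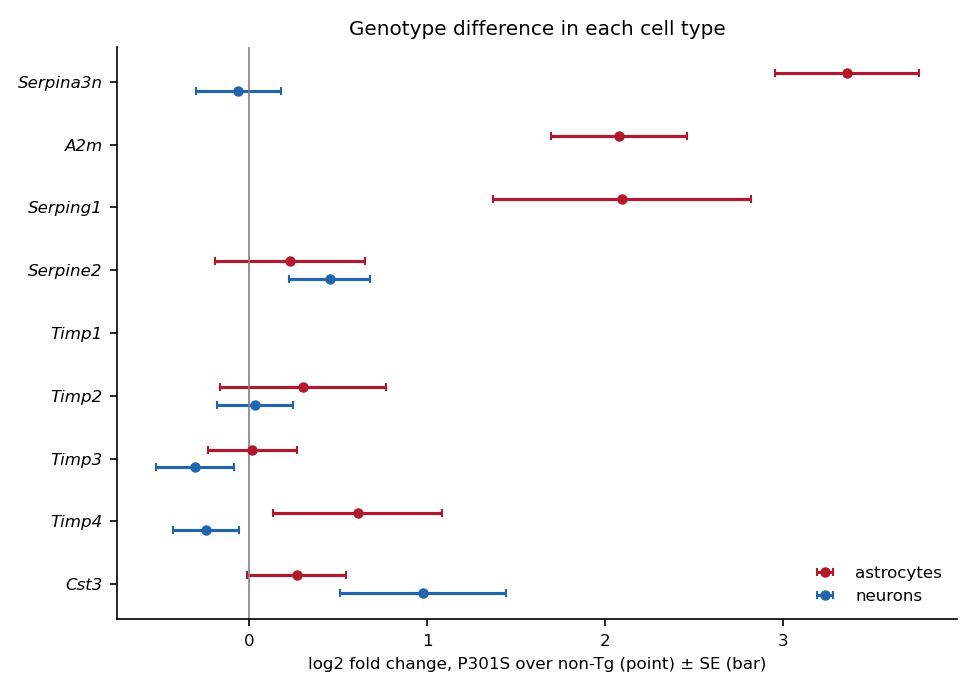
Log2 fold change of P301S over non-Tg (horizontal axis), with bars of 1 SE, for each gene in astrocytes (red) and in neurons (blue). Genes without a point had too few counts to be tested in that cell type. In astrocytes Serpina3n is at 3.36, A2m at 2.08 and Serping1 at 2.10, and the other members lie between 0.017 and 0.61.

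**Figure D3:**
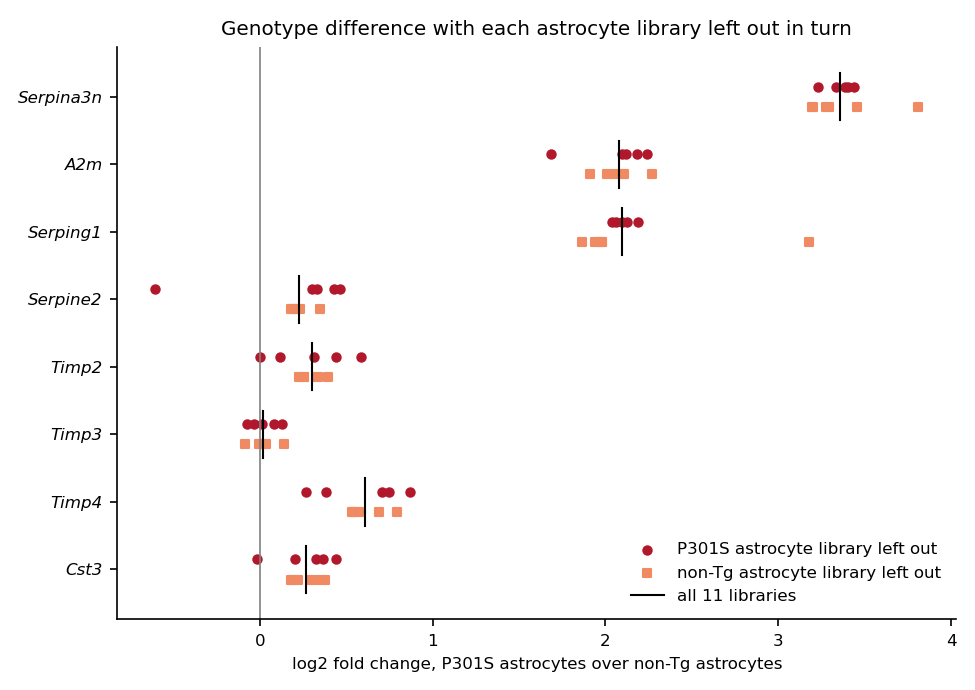
Log2 fold change of P301S over non-Tg astrocytes (horizontal axis) with each of the 11 astrocyte libraries left out in turn. Circles mark left-out P301S libraries, squares left-out non-Tg libraries, and the black line the value with all 11. Serpina3n stays between 3.19 and 3.81 and A2m between 1.69 and 2.27, while Serpine2 is at -0.60 and Serping1 at 3.17 without 1 library each.

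Among neurons the same comparison gave 0 calls in 6 tested members by edgeR. With an unadjusted p under 0.05 there was 1 member, Cst3, as for 7.73% of all genes, and DESeq2 and voom also called 0. Over all 10951 genes tested 0.00913% were called by edgeR. The median log2 fold change of the 6 was -0.014, against -0.024 over all genes tested. A2m, Serping1 and Timp1 fell under the count filter in neurons, with at most 9 counts of A2m in any P301S or non-Tg neuron library.

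Serpina3n was at 7.29 to 18.5 CPM (median 15.03) in P301S neurons and at 7.02 to 22.0 CPM (median 13.6) in non-Tg neurons. The ranges nearly coincided, and the log2 fold change was -0.062 (SE 0.24, 95% interval -0.53 to 0.40, adjusted p = 0.970). The upper bound of that interval lies far below the 3.36 seen in astrocytes.

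Cst3 was at 15.1 to 72.0 CPM (median 31.8) in P301S neurons and at 3.43 to 31.3 CPM (median 21.3) in non-Tg neurons, with a log2 fold change of 0.98 (SE 0.47, adjusted p = 0.645). The groups overlapped, and the value was 0.61 without P301S neuron library 1, which held the highest level. Serpine2 had a log2 fold change of 0.45 (SE 0.23, adjusted p = 0.669), with 5.62 to 10.5 CPM in P301S neurons and 4.32 to 7.79 CPM in non-Tg neurons. Cst3 is also abundant in microglia, and summed microglia markers came to 90.9 to 434 CPM in P301S neurons, with library 1 the highest, and to 35.1 to 203 CPM in non-Tg neurons. Of 9 tested astrocyte markers, 8 were above 0 in P301S neurons relative to non-Tg neurons, with a median log2 fold change of 0.57 and 0 called by edgeR. The part of these other cells in the Cst3 and Serpine2 values was not tested. Timp3 had one of -0.31 (SE 0.22, adjusted p = 0.785) that was -0.085 without non-Tg neuron library 5, Timp4 one of -0.24 (SE 0.19, adjusted p = 0.806) and Timp2 one of 0.033 (SE 0.21, adjusted p = 0.980).

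When the genotype difference in neurons was subtracted from that in astrocytes in a fit of all 25 libraries, Serpina3n had a log2 difference of 3.43 (SE 0.49), given as a description. It was the only 1 of the 9 members called. With Serpina3n and Serping1 set aside, 0 of the other 7 were called, where 0.394% of 14197 genes were called in either direction. The log2 difference was 1.81 (SE 0.68, adjusted p = 0.184) for A2m and 3.29 (SE 1.23, adjusted p = 0.185) for Timp1, and, again as a description, 2.88 (SE 1.01) for Serping1. Serping1 was at 3.95 without non-Tg astrocyte library 4, and Timp1 was at 1.57 without P301S astrocyte library 4. A2m and Serping1 were near the limit of detection in neurons. For the 5 other members the difference lay between -0.68 (Cst3) and 0.85 (Timp4), with adjusted p of 0.436 or more.

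Between cell types, most of these inhibitors were called higher in astrocytes than in neurons in both genotypes, by margins that differed widely. In non-Tg brains the calls of Serpina3n and Serping1 were lost in several fits, given below. In P301S brains 8 of 9 members were called higher in astrocytes than in neurons, where 29.0% of 14197 genes were called higher, and 0 lower, where 23.2% were. Among these 8 are Serpina3n and Serping1, whose high P301S astrocyte libraries were known beforehand, and 6 of the other 7 members were called. In 6 of 9 no P301S astrocyte library overlapped a P301S neuron library, as for 11.7% of all genes in that direction. In non-Tg brains 7 of 9 were called higher, where 25.1% of all genes were, and 1, Timp1, lower, where 21.8% of all genes were, and 4 of 9 had no overlap upward, as for 14.7% of all genes. With those 2 genes set aside, the members' median log2 fold change of astrocytes over neurons was 3.14 in P301S brains, where that of all genes was 0.21, and 2.81 in non-Tg brains, where that of all genes was 0.11. A2m and Serping1 had too few counts to be tested in neurons alone, so they entered this fit through their astrocyte libraries. Timp1 had too few to be tested in either cell type alone. Calls of these genes, and the counts of calls that hold them, thus partly depend on the filter. The 2 cell-type comparisons set different libraries against each other, but both come from 1 fit of all 25 libraries and are not independent. Without P301S astrocyte library 4, the genes called in non-Tg brains went from 6659 to 7209. The astrocyte libraries are also those of the genotype comparison in astrocytes.

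Cst3 was 21.6 times as high in astrocytes as in neurons of P301S brains (log2 4.44, SE 0.48, adjusted p = 2.76e-09) and 34.6 times as high in non-Tg brains (log2 5.11, SE 0.44, adjusted p = 1.30e-11). Serpine2 was 23.6 times as high in P301S brains (log2 4.56, SE 0.41, adjusted p = 4.61e-11) and 27.5 times as high in non-Tg brains (log2 4.78, SE 0.36, adjusted p = 8.57e-13). The P301S value for Serpine2 was log2 3.73 without P301S astrocyte library 4. A2m had a log2 fold change of 6.58 (SE 0.52) in P301S brains, the largest of the members there, and 4.76 (SE 0.45) in non-Tg brains. No p is printed for A2m here, since it passed the count filter through its astrocyte libraries. It had at most 9 counts in any neuron library. Timp3 was 8.83 times as high in astrocytes of P301S brains (log2 3.14, SE 0.26, adjusted p = 1.27e-11) and 7.03 times as high in those of non-Tg brains (log2 2.81, SE 0.23, adjusted p = 4.00e-12).

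Serpina3n and Serping1 in P301S brains are given as descriptions, since their level in these astrocyte libraries was known. Serpina3n was 22.9 times as high in astrocytes as in neurons of P301S brains (log2 4.52, SE 0.39), and 2.13 times as high in non-Tg brains (log2 1.09, SE 0.32, adjusted p = 0.00489). The non-Tg call rested on non-Tg astrocyte library 5, without which the log2 fold change was 0.63 (adjusted p = 0.0763). It was also lost with voom (adjusted p = 0.115) and with genes detected as a covariate (adjusted p = 0.103). Serping1 had a log2 fold change of astrocytes over neurons of 4.64 (SE 0.79) in P301S brains, and of 1.76 (SE 0.64, adjusted p = 0.0239) in non-Tg brains. Serping1 passed the count filter through its astrocyte libraries, so its non-Tg call partly depends on the filter. Its non-Tg value was 0.68 (adjusted p = 0.394) without non-Tg astrocyte library 4, and the call was also lost without non-Tg neuron library 3 (adjusted p = 0.0518) or 5 (adjusted p = 0.0517). The non-Tg call was lost as well with genes detected as a covariate (adjusted p = 0.0662) and with oligodendrocyte and microglia markers (adjusted p = 0.815).

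The other TIMPs stood closer to neurons. Timp2 had a log2 fold change of astrocytes over neurons of 1.35 (SE 0.38, adjusted p = 0.00348) in P301S brains and of 1.06 (SE 0.34, adjusted p = 0.00944) in non-Tg brains. Both calls were lost with oligodendrocyte and microglia markers as covariates (adjusted p = 0.328 in P301S brains and 0.353 in non-Tg brains), and that in P301S brains with genes detected (adjusted p = 0.164). Timp4 had one of 0.96 (SE 0.37, adjusted p = 0.0279) in P301S brains, which passed in 20 of 25 fits with a library left out, and one of 0.11 (SE 0.33, adjusted p = 0.817) in non-Tg brains. The Timp4 call was lost without P301S astrocyte library 5 (adjusted p = 0.170) or 4 (0.0934), without P301S neuron library 2 (0.0643), 3 (0.0517) or 4 (0.0794). It was also lost in 8 of 11 other settings, with adjusted p of 0.0561 (relative log expression size factors) to 0.788 (genes detected), and held with DESeq2, with oligodendrocyte and microglia markers and without P301S astrocyte libraries 3 and 4. Timp1 was lower in astrocytes of non-Tg brains (log2 -2.21, SE 0.90, adjusted p = 0.0424), a call that held in 17 of 25 fits with a library left out and had an adjusted p of up to 0.0846 in the others. The Timp1 value was -3.32 without non-Tg astrocyte library 4, and the call was lost without any of the 5 other non-Tg astrocyte libraries or without non-Tg neuron library 1, 6 or 8. It was lost too with sex markers, with oligodendrocyte and microglia markers and without the 2 neuron libraries whose identifiers lie in another range (adjusted p of 0.0559 to 0.994). In P301S brains Timp1 had a log2 fold change of 1.08 (SE 0.85, adjusted p = 0.294), and of -0.67 without P301S astrocyte library 4.

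Because Timp1, Timp3 and Timp4 lie within synapsin genes, the hosts' values stand beside theirs. Syn1 was lower in astrocytes than in neurons, with a log2 fold change of -1.46 in P301S brains and -2.14 in non-Tg brains, and Syn2 likewise with -2.10 in P301S brains and -1.11 in non-Tg brains. Syn3 had -0.77 in P301S brains (adjusted p = 0.0764) and -1.09 in non-Tg brains. Across the 14 neuron libraries the correlation of log2 CPM, given as a description, was 0.15 for Timp1 with Syn1, 0.58 for Timp3 with Syn3 and 0.33 for Timp4 with Syn2. The part of host reads in the neuron values of these 3 genes was not tested.

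Expressed as a share of the astrocyte level, the neuron level differed widely between the members. In P301S brains the mean neuron CPM was 1.06% of the mean astrocyte CPM for A2m, 4.17% for Serping1, 4.58% for Serpine2, 4.65% for Serpina3n and 5.02% for Cst3. The 12 astrocyte marker genes ran from 0.962% (Gjb6) through a median of 1.87% to 13.4% (Slc4a4) by the same measure. The top of this range was set by Slc4a4 and Slc7a10 (8.14%), and every other marker was at or under 3.32% (Slc1a2). These 5 members lay within the full range, but only A2m lay among those other markers. Timp3 at 12.2% was also inside the full range, though under Slc4a4 alone. Timp2 at 42.0%, Timp1 at 49.5% and Timp4 at 55.9% were outside. Without P301S astrocyte library 4 the share was 167% for Timp1, now higher in neurons, and 7.94% for Serpine2. In non-Tg brains the markers ran from 0.519% through a median of 1.67% to 12.3% (Slc4a4). Apart from Slc4a4 and Slc7a10 (10.6%), the markers were at or under 2.75% (Aldh1l1). Cst3 at 3.12%, A2m at 3.76% and Serpine2 at 3.83% lay within the full range but above those other markers. Timp3 at 14.7%, Serping1 at 29.2%, Serpina3n at 48.4%, Timp2 at 49.6%, Timp4 at 96.8% and Timp1 at 469% lay above the full range. Without non-Tg astrocyte library 4 the share was 61.1% for Serping1 and 1112% for Timp1. The part of astrocyte RNA in the neuron libraries was not tested.

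**Figure D4:**
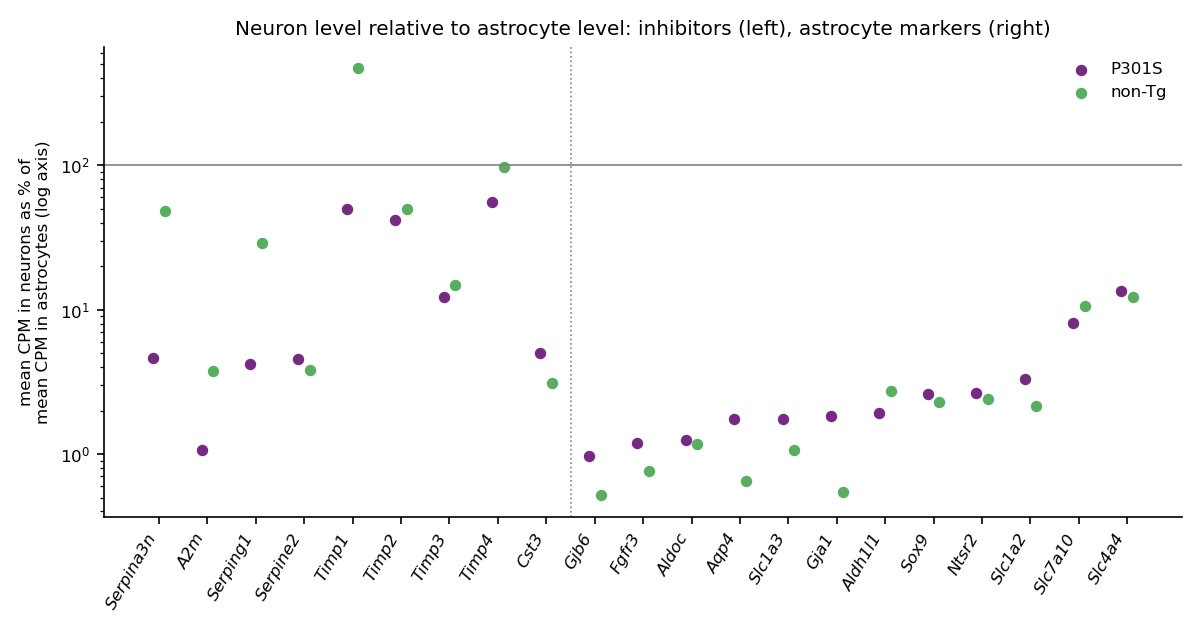
Mean CPM in neurons as a percent of mean CPM in astrocytes (vertical log axis) for the 9 inhibitor genes left of the dotted line and 12 astrocyte marker genes right of it, in P301S brains (purple) and non-Tg brains (green). The grey line marks equal levels in both cell types. Serpina3n is at 4.65% in P301S brains and 48.4% in non-Tg brains.

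Across the 11 astrocyte libraries, 10128 genes were ranked by the correlation of their log2 CPM with that of each member, as a description of likeness in which both genotypes take part. The 5 genes most like Serpina3n were C4b (r = 0.96), a complement component, Gtf3c1 (r = 0.95), a subunit of a general factor for RNA polymerase III, Gfap (r = 0.95), the astrocyte intermediate filament used for sorting, Fxyd1 (r = 0.94), a regulator of the sodium pump, and Rnf213 (r = 0.93), a large ubiquitin ligase. After each genotype's mean was subtracted, r was 0.65 for C4b, 0.77 for Gtf3c1, 0.63 for Gfap, 0.57 for Fxyd1 and 0.58 for Rnf213, all over the same 11 libraries. Across the 14 neuron libraries the same genes had r between -0.43 (Rnf213) and 0.086 (Gfap) with Serpina3n. The gene most like each other member was Mettl6 for A2m (r = 0.88), Cherp for Serping1 (0.95), Nup160 for Timp2 (0.97), Nlrc3 for Timp3 (0.87), Pttg1 for Timp4 (0.95), Cyp2j6 for Serpine2 (0.94) and Scg3 for Cst3 (0.90). These values, like those of Serpina3n, are the highest of 10128 over only 11 libraries and were not tested. With genotype means subtracted, r was 0.69 for A2m and from 0.89 (Timp3) to 0.97 (Timp2) for the others. In the 14 neuron libraries the same pairs ran from -0.19 (Timp4) to 0.52 (Serpine2). Among the members, Serpina3n and A2m had r = 0.73, which was -0.27 after the genotype means were subtracted. Serpine2 and Cst3, by contrast, had r = 0.68 and kept it within genotypes, at 0.73.

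Other inhibitors and the proteases themselves did not pass the test between genotypes in astrocytes. By edgeR 0 genes were called among 8 tested other serpins, 9 other extracellular inhibitors, 5 matrix metalloproteinases, 14 ADAM and ADAMTS proteases, 8 genes of a list of cathepsins and legumain (Lgmn), and 10 extracellular serine proteases and receptors. At an unadjusted p under 0.05 there was 1 serpin, 1 other inhibitor, no metalloproteinase, 1 ADAM or ADAMTS protease, 3 genes of the cathepsin and legumain list (Ctsa, Ctsb and Lgmn) and 1 gene of the serine protease list, where 13.4% of all genes were. DESeq2 called 2 of the cathepsin and legumain list, 1 other inhibitor and 1 gene of the serine protease list, and voom called 1 other inhibitor and 1 gene of the serine protease list. None of the 17 other cystatins and stefins had enough counts to be tested.

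Lrp1, the receptor that clears protease complexes of A2m and of several serpins, was at 534 to 1023 CPM in P301S astrocytes and at 240 to 505 CPM in non-Tg astrocytes, with a log2 fold change of 0.91 (SE 0.25, adjusted p = 0.0964). The groups did not overlap, although the adjusted p missed the threshold. Ctsb, cathepsin B, a cysteine protease that Cst3 inhibits, had a log2 fold change of 1.10 (SE 0.30, adjusted p = 0.0956), and the median over the 8 tested genes of the cathepsin and legumain list was 0.99 against 0.13 over all genes. Cathepsins are also abundant in microglia, and all 7 tested microglia markers were above 0 in the same comparison, with a median of 0.40 and with 0 called by edgeR, DESeq2 or voom and 2 at an unadjusted p under 0.05. The part of microglia in these values was not tested. Itih3, a heavy chain of the inter-alpha-trypsin inhibitor family, had one of 1.06 (SE 0.30, adjusted p = 0.109), with 140 to 274 CPM in P301S astrocytes and 64.9 to 155 CPM in non-Tg astrocytes. Serpinb9, an inhibitor of granzyme B, had one of -2.39 (SE 0.89, adjusted p = 0.233), Adamts10 one of 1.08 (adjusted p = 0.369) and Mmp19 one of -0.56 (adjusted p = 0.732).

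**Figure D5:**
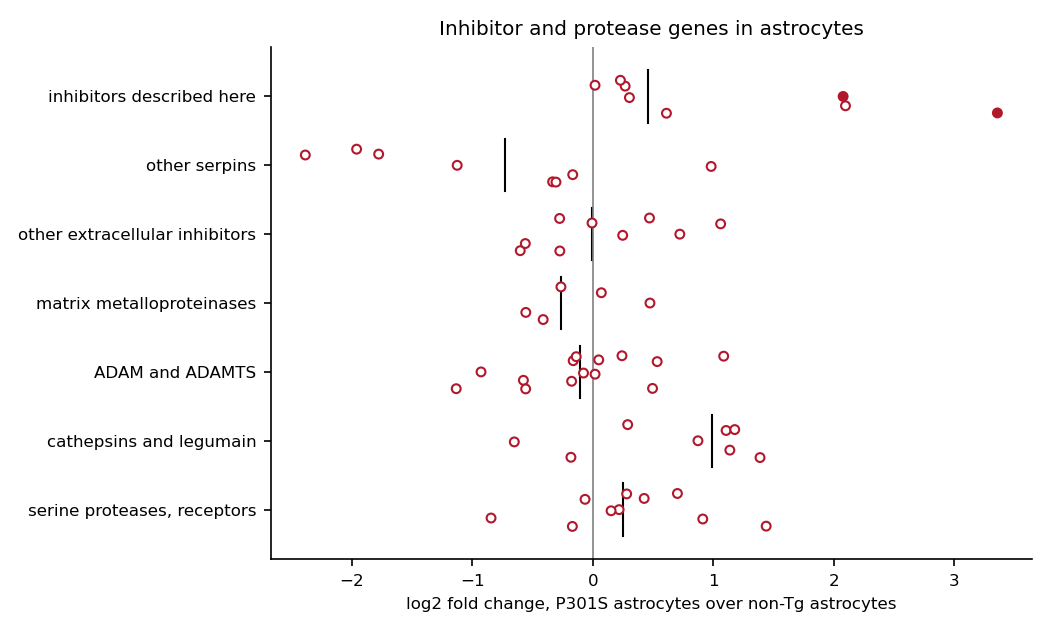
Log2 fold change of P301S over non-Tg astrocytes (horizontal axis) for every tested gene of each list, with filled points for an adjusted p under 0.05 and a black line at the list's median. The 2 filled points are Serpina3n and A2m, and the cathepsin and legumain list has a median of 0.99.

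In neurons 0 genes of the same lists were called between genotypes by edgeR, DESeq2 or voom. With an unadjusted p under 0.05 there was 1 of 3 tested serpins, 0 of 7 other inhibitors, 1 of 4 matrix metalloproteinases, 2 of 18 ADAM and ADAMTS proteases, 1 of 8 of the cathepsin and legumain list and 2 of 9 genes of the serine protease list. Serpini1, neuroserpin, had a log2 fold change of -0.67 (SE 0.31, adjusted p = 0.636), and Lrp2 one of -0.82 (SE 0.28, adjusted p = 0.472).

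Between cell types the partners were called in both directions. Over all 14197 genes tested, 29.0% were called higher in astrocytes and 23.2% lower in P301S brains. In non-Tg brains 25.1% were called higher and 21.8% lower. In P301S brains 7 of 8 genes of the cathepsin and legumain list were called higher in astrocytes and 0 lower, and the same counts held in non-Tg brains. Ctsb had a log2 fold change of astrocytes over neurons of 2.85 in P301S brains and 1.64 in non-Tg brains, on the same side as its inhibitor Cst3. Metalloproteinases went both ways, with 3 of 7 higher and 2 lower in P301S brains and 4 higher and 2 lower in non-Tg brains. Mmp14, a membrane-bound metalloproteinase that Timp2 and Timp3 inhibit, was at 30.0 to 64.3 CPM in P301S astrocytes against 0.444 to 1.51 CPM in P301S neurons, and Mmp16, its relative, was at 5.12 to 33.6 CPM in P301S astrocytes against 100 to 132 CPM in P301S neurons. Of 8 tested other serpins, 2 were higher and 2 lower in astrocytes of P301S brains, and 3 were higher and 2 lower in those of non-Tg brains. The serpin counts in P301S brains were near the shares over all genes, and no list count was tested against those shares. Serpini1, made by neurons, was lower in astrocytes, with a log2 fold change of -2.76 in P301S brains and -3.09 in non-Tg brains. Lrp1 was higher in astrocytes of both genotypes, with a log2 fold change of 2.40 in P301S brains and 1.67 in non-Tg brains.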

How the data were processed

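Each library came as a table of raw counts and RPKM per Entrez gene, deposited by the authors. GSNAP and the build GRCm38 are named per the submitters' processing notes, with the counting tool and versions not given in the sources used here. Deposited RPKM values equalled the deposited counts times a factor per library and a factor per gene. Of 36528 IDs, 31049 matched a mouse symbol, and the other 5479 held 3.30% of all counts and stayed in the fits under their IDs.

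Genotype was tested within each cell type, and cell types and the difference of genotype differences were tested in a fit of all 25 libraries, with edgeR 4.0.16 (quasi-likelihood test, TMM factors, filterByExpr) in R 4.3.3. P-values were adjusted by Benjamini-Hochberg over all genes tested, with a threshold of 0.05. CPM values use TMM factors of all 25 libraries. Intervals are nominally 95% and use the SE, which was taken from the fold change and its F statistic. They were set by the normal distribution and are thus narrower than the F test would give. Correlations used log2 CPM with a prior count of 2. DESeq2 1.42.0, voom (limma 3.58.1), other size factors, filters, covariates and left-out libraries were alternatives. Fits were tested on simulated data. Any 2 libraries of a group differed beyond sampling noise (lowest chi-square per degree of freedom 1.84 over 68 pairs), so none was counted as a duplicate. Libraries were numbered in accession order within groups, since the labels give no replicate numbers.

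The members and the lists of genes were chosen with earlier results of these data known. All 9 members are named in each comparison. Of each list, the tested genes with the smallest p are named, up to 3 where the list has a called gene and otherwise 1, and a selection of these is given. Gene positions are those of RefSeq, and strands, exons and overlaps are those of GENCODE vM21, both on GRCm38. Sorted myeloid cells were not analysed here.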

Additional observations from a re-analysis of the deposited data

Results flagged for a closer look

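Within groups of 4 to 10 libraries, the highest or lowest library of each member was compared with its neighbours by Dixon's criterion at 95%. For values that follow a normal distribution, chance alone meets it in about 1 of 20 groups. CPM values need not follow one, so the 9 of 36 groups that met it are not read as an excess. Among P301S astrocytes these were A2m in library 2 at 399 CPM, Serping1 in library 4 at 18.5 CPM, the lowest of its group, and Timp1 at 39.0 CPM and Serpine2 at 487 CPM, both highest in library 4. Library 4 was thus the extreme one for 3 of the 9 members, and it is also the library with the fewest genes detected. Among non-Tg astrocytes they were Serping1 at 22.2 CPM and Timp1 at 3.24 CPM (7 counts), both highest in library 4. Among non-Tg neurons they were A2m in library 4 at 4.86 CPM (9 counts, with up to 8 in the others), Timp2 in library 2 at 43.3 CPM and Timp3 in library 5 at 70.7 CPM. The genotype difference of Serpina3n in astrocytes exceeded that in neurons by 3.43 on the log2 scale, which is given as a description, since the difference in astrocytes was known when the genes were listed.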

How the results depend on the processing

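No paired analysis was possible because the labels give no replicate numbers and tie no library to an animal. In astrocytes 66 genes and 2 members were called between genotypes, and leaving out 1 library gave 27 to 136 genes and 2 to 3 members. Other settings gave 441 genes with 3 members (DESeq2), 119 with 3 (voom), 561 (no filter), 15 (sex markers as covariate), 2 with 1 member (oligodendrocyte and microglia markers), 0 with 0 members (genes detected, and endothelial and mural markers) and 1682 with 4 members (all 25 libraries fitted together). Without P301S astrocyte libraries 3 and 4, chosen after seeing the data, 42 genes were called. In neurons 1 gene was called, and 0 to 23 with 1 library left out. It was 49 with DESeq2, 41 with voom, 17 without a filter, 10 with a filter of 1 CPM, 7 with genes detected, 0 with oligodendrocyte and microglia markers or with astrocyte markers, and 38 without 2 non-Tg neuron libraries whose labels use identifiers of another range. Of the differences between cell types in genotype effect 56 were called, 9 to 522 with 1 library left out, 425 with DESeq2, 10 with voom, 12 with oligodendrocyte and microglia markers, 12 without those 2 neuron libraries and 266 without P301S astrocyte libraries 3 and 4. Members called there were 1 to 2 with 1 library left out. Astrocytes against neurons gave 7420 genes in P301S brains (6840 to 7781 with 1 left out, 3461 with genes detected, 1865 with oligodendrocyte and microglia markers, 4925 in the 11 P301S libraries alone) and 6 to 8 members, and 6659 in non-Tg brains (6168 to 7209, and 2190 with 5 members under oligodendrocyte and microglia markers) and 5 to 8 members. The cause was not tested in any of these. With voom or without a filter the median log2 fold change of all genes in astrocytes was -0.15 and -0.17, against 0.13. Serpina3n and A2m were higher in P301S astrocytes in all 23 alternatives, and were called in 21 and 20 of them.

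Signs changed for small, uncalled values and for Timp1. In astrocytes Timp3 was at -0.11 (voom), -0.023 (no filter), -0.18 (genes detected), -0.30 (endothelial and mural markers) and -0.083 to 0.14 with 1 library left out. Serpine2 was at -0.73 (voom), -1.29 (genes detected), -0.52 (sex markers), -1.46 (endothelial and mural markers), -0.49 without P301S libraries 3 and 4, and -0.60 to 0.47 with 1 library left out. Cst3 was at -0.68 (genes detected), -0.069 (sex markers), -0.55 (endothelial and mural markers) and -0.017 to 0.44 with 1 library left out. In neurons Serpina3n was at 0.039 (sex markers), 0.28 (oligodendrocyte and microglia markers), 0.025 (astrocyte markers) and -0.16 to 0.072 with 1 library left out, and Timp2 at -0.0020 (genes detected), -0.080 (without those 2 libraries) and -0.059 to 0.21. In the difference of genotype effects, with 1 library left out, Timp2 ran from -0.022 to 0.56 and Serpine2 from -1.03 to 0.026. Between cell types Timp1 in P301S brains was at -1.12 (voom), -1.88 (genes detected), -0.38 without P301S astrocyte libraries 3 and 4, and -0.67 to 1.40 with 1 library left out, and in non-Tg brains at 0.10 (oligodendrocyte and microglia markers). Timp4 in non-Tg brains was at -0.077 (relative log expression factors), -0.078 (DESeq2), -0.017 (voom), -0.030 (filter of 1 CPM), -0.11 (genes detected), -0.068 (the authors' size factors) and -0.074 to 0.18 with 1 library left out. At this depth Timp1 had 3 counts or fewer in 5 of 6 non-Tg astrocyte libraries, and A2m had at most 9 counts in any neuron library.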

Other observations

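Several protease and inhibitor genes that are not members had marked differences between the cell types. Sparcl1, a secreted matrix protein of astrocytes listed here with the inhibitors for its follistatin-like domain, was at 1665 to 2925 CPM in P301S astrocytes and 89.0 to 181 CPM in P301S neurons. F3, tissue factor, which starts coagulation, was at 138 to 797 CPM in P301S astrocytes and 3.10 to 5.52 CPM in P301S neurons, and at 148 to 583 CPM in non-Tg astrocytes and 0.951 to 8.10 CPM in non-Tg neurons. Htra1, a secreted serine protease, was at 81.4 to 143 CPM in P301S astrocytes and 0 to 4.75 CPM in P301S neurons, and at 95.1 to 149.8 CPM in non-Tg astrocytes and 0 to 6.68 CPM in non-Tg neurons. On the neuron side, Adamts17 was at 0 to 2.01 CPM in P301S astrocytes and 47.2 to 78.4 CPM in P301S neurons, and Mmp17 at 0 to 0.316 CPM in P301S astrocytes and 14.1 to 22.7 CPM in P301S neurons. For these 5 genes no astrocyte library overlapped a neuron library in P301S brains, as for 11.7% of 14197 genes in the upward direction. Genes were named for a small p within their lists, so this is a description. Itih3 and Itih5, heavy chains of the inter-alpha-trypsin inhibitor family, were also astrocyte genes, with log2 fold changes over neurons of 7.14 for Itih3 and 5.47 for Itih5 in P301S brains and 6.55 for Itih3 and 6.41 for Itih5 in non-Tg brains, each with an adjusted p under 0.05 by edgeR.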
